A study of Homo sapiens with 36 samples.

Results

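The AP-1 and immediate early genes described here are 10 of the 62757 genes listed in the count tables: FOS, FOSB, FOSL1, FOSL2, JUNB, JUND, EGR1, ATF3, IER2 and IER3. They were chosen by name, and in part because ATF3 was higher with the degrader #11, so every comparison of #11 with its control is given as a description without a test. The cells were HCT-116, a line from a colorectal carcinoma. FBXW7 is the protein through which an SCF ubiquitin ligase binds what it marks for degradation. RNA-seq of polyA mRNA asked how loss of FBXW7, and lowering of the class IIa deacetylase HDAC4 in cells without FBXW7, alter the response to oxaliplatin (OXPT), a platinum drug that crosslinks DNA. The 8 groups hold 3 libraries each. The FBXW7-/- cells (KO) are a supplier's line whose edit was checked by Sanger sequencing, according to the study's methods. They were transfected for 48 h with esiRNA, a pool of short interfering RNAs, either a control (esiCT) or one against HDAC4 (esiHDAC4), or received the PROTAC degrader #11 together with esiCT, and each of these states was left untreated (UNT) or was given 50 µM OXPT for the last 24 h. The dose of #11 is not settled, since the treatment entry of the labels gives 1 µM and the description entry 10 µM. The remaining groups are wild-type cells (WT), untreated and with OXPT; here the titles name esiCT but the treatment entries name esiHDAC4, so their esiRNA is not settled either. Untreated cells received the solvents, water for OXPT and DMSO for #11. Nothing in the labels says that libraries of a group came from separate cultures, so p-values measure the spread between these libraries, which may be technical.

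AP-1 is a dimer of basic leucine zipper proteins, in which a member of the FOS family pairs with a member of the JUN family, or JUN proteins pair with each other or with ATF proteins. Many of these genes are immediate early genes: growth factors and stress switch them on within minutes through MAP kinases, ternary complex factors bound to SRF, and CREB or ATF proteins, without any need for new protein. Their mRNAs are short-lived as a rule. ATF3 is in addition a gene of the integrated stress response downstream of ATF4, and of DNA damage signalling.

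The promoters of ATF3, FOS, EGR1, FOSB and JUNB are shown because these 5 genes had the largest differences between #11 and esiCT without OXPT, and that of JUND because it holds a full palindrome of the cAMP response element. RefSeq windows on GRCh38.p14, from 250 bases before to 50 bases after an annotated start, were found for 8 of the 10 genes, and ATF3 had 2 such windows. Of each, 140 bases are printed 5′ to 3′ on the gene's strand, ending at the base before the start except for JUND, whose stretch runs from 210 to 71 bases before it. Capitals mark TGACG on either strand (the core of the cAMP response element), its palindrome TGACGTCA, TATAAA, and the CArG box, the sequence that SRF binds.
FOS (chr14:75278688-75278827, plus strand): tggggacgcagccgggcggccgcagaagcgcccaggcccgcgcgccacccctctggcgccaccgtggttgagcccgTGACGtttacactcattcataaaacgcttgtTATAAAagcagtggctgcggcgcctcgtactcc
FOSB (chr19:45467856-45467995, plus strand): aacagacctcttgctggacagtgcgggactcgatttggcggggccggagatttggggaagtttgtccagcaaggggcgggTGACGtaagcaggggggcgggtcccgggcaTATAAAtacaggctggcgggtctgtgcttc
JUNB (chr19:12791346-12791485, plus strand): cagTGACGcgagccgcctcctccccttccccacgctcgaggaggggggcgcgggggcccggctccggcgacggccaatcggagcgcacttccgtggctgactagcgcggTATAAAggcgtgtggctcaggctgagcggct
JUND (chr19:18281693-18281832, minus strand): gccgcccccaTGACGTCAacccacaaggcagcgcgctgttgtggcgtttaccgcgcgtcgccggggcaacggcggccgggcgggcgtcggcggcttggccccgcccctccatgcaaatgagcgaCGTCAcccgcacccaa
EGR1 (chr5:138465339-138465478, plus strand): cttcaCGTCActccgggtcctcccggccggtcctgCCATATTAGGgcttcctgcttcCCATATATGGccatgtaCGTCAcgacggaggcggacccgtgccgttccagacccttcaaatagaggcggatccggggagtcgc
ATF3 (chr1:212565267-212565406, plus strand): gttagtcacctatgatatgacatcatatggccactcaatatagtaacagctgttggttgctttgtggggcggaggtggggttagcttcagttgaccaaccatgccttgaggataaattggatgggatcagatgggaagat
FOS, FOSB and JUNB each held TATAAA about 30 bases before the start, at 33, 30 and 31 bases, and TGACG at 64, 60 and 137 bases. EGR1 held 2 CArG boxes, CCATATTAGG at 105 bases and CCATATATGG at 83 bases before its start, and TGACG at 135 and 66 bases. JUND held the full palindrome at 200 bases. With both strands searched over the whole windows, TGACG was present in 7 of the 8 genes (FOS, FOSB, FOSL2, JUNB, JUND, EGR1 and IER2) and in 24.6% of the 35116 promoters of the same length. TATAAA was present in 4 of the 8 genes, against 11.5% of all promoters, and the CArG box in 1, against 1.29%. The palindrome TGACGTCA, which contains TGACG, was found in JUND alone among the 8 (1.85% of all promoters), the AP-1 site TGANTCA in FOSL2 alone (7.71%), the EGR1 site GCGNGGGCG in EGR1 alone (9.43%), and the ATF4 element TGATGCAA in none (0.866%). In the printed ATF3 window there are no capitals. The other ATF3 window held TATAAA at 230 bases, and by this match alone ATF3 counts among the 4 genes with TATAAA. ATF3 sequence outside these 2 windows was not searched. These letters are a description of the windows and not of bound sites. Sequence more than 250 bases before a start was not searched, so a motif missing here may lie further upstream.

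The 24 libraries held 10725966 to 20527222 counts on genes (median 14510758). Reads without a genomic position made up 7.74% to 22.3% of a library, the highest share in KO esiCT OXPT replicate 3. Counts are those of the unstranded column, because the reverse-strand and forward-strand totals stood in a ratio of 1.00 to 1.02, as in reads without strand, although the kit named in the labels is a stranded one. Of all genes, 12356 had a mean of at least 64 counts in at least 1 group and were tested; all 10 genes passed this filter. The epithelial markers EPCAM, CDH1, KRT8, KRT18, KRT19 and CDX2 were present in every library, KRT20 was low (0.329 to 3.82 CPM), and VIL1 and LGALS4 reached at most 0.481 and 0.593 CPM. Of 4 fibroblast markers COL1A1 alone was detected at more than 1 CPM (25.1 to 77.6), and 3 leukocyte markers summed to at most 0.292 CPM. HDAC4 mRNA averaged 19.1 CPM in KO esiCT UNT and 10.9 in KO esiHDAC4 UNT (log2 fold change -0.82, adjusted p = 0.561 by edgeR's quasi-likelihood test), a decrease that did not pass across all genes. The KO to WT log2 fold change of FBXW7 mRNA was -0.32 (adjusted p = 1.00); the position of the edit is not given, so the count does not check the genotype. WT UNT replicate 3, WT OXPT replicate 3 and KO esiCT OXPT replicate 3 stood apart from their group mates in many of the 10 genes. Medians of the 10 genes that rest on them are given with and without them, except for silencing under OXPT. In bulk samples fewer cells that make an mRNA and less of it in each cell cannot be told apart.

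Levels are given as CPM, a gene's counts relative to the total of its library after TMM scaling, for replicates 1, 2 and 3 in that order. For comparison between genes, they were divided by exon length, on counts of both strand columns. On this scale IER3 stood highest, with group means of 339.6 to 964 CPM per kb, followed by JUND (87.8 to 180.4), IER2 (59.2 to 157), JUNB (47.3 to 183) and FOSL1 (39.3 to 108). EGR1 had group means of 15.1 to 138 CPM per kb, ATF3 4.60 to 56.0, and FOSL2 5.23 to 18.1. FOS (1.66 to 9.61 CPM per kb) and FOSB (0.436 to 1.29) were the least abundant, with as few as 48 and 24 counts in a library. JUNB, IER2 and IER3 lose reads in the unstranded column to genes that overlap them on the opposite strand: both strand columns together held 3.18 times as many counts for IER3 (overlapped by IER3-AS1 over 32.6% of its exon bases and by HCG20 over 6.3%), 2.13 times as many for IER2 (overlapped by the lncRNAs ENSG00000287296 and ENSG00000267598 over 21.5% and 30.7%), and 1.28 times as many for JUNB (overlapped by HOOK2 over 14.2%). Reads of these genes and of their antisense partners cannot be separated without strand. The other 7 genes had 1.00 times as many.

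**Figure D1:**
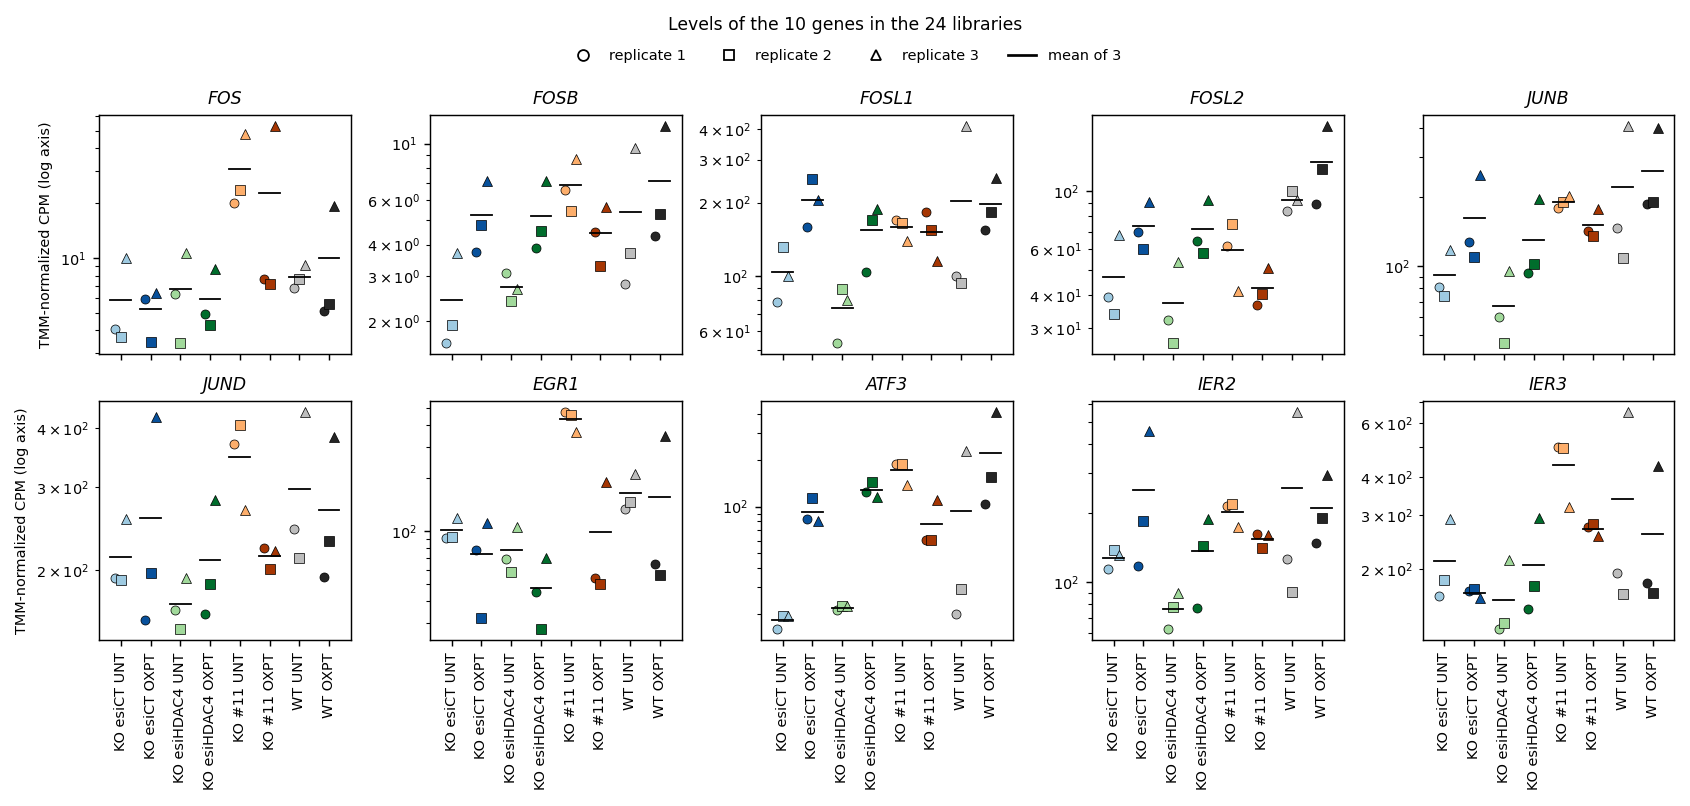
TMM-normalized CPM (log axis) of the 10 genes in the 8 groups; symbols are replicates 1 to 3 and the line is the mean of 3. ATF3 lies between 16.0 and 22.5 CPM in the untreated KO esiCT and KO esiHDAC4 libraries, and between 60.9 and 190.2 in the other KO libraries.

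FOS, the founding partner of JUN in AP-1 (ENSG00000170345.10, chr14:75278826-75282230 on GRCh38), was scarce in most groups and higher with #11. In KO esiCT UNT it stood at 4.10, 3.66 and 9.96 CPM, and in KO esiCT OXPT at 5.94, 3.47 and 6.43. With #11 it stood at 20.1, 23.7 and 48.1 CPM untreated, each above all 3 esiCT libraries, a 5.18-fold difference. With #11 and OXPT it stood at 7.69, 7.18 and 53.2 CPM, where replicate 3 lies far above the other two. FOS was not called for OXPT in any of the 4 states: the log2 fold changes were -0.17 in KO esiCT, -0.18 in KO esiHDAC4, -0.43 in KO #11 and 0.34 in WT, each smaller than its standard error of 0.66 to 0.68. Without KO #11 OXPT replicate 3, the log2 fold change of FOS with OXPT in KO #11 was -2.04 (adjusted p = 0.0438 by edgeR's quasi-likelihood test). WT cells held 6.82, 7.66 and 9.19 CPM untreated and 5.13, 5.56 and 19.2 with OXPT, so replicate 3 was again the high library under OXPT.

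FOSB, a close relative of FOS (ENSG00000125740.14, chr19:45467995-45475179), was the least abundant gene, and its OXPT libraries lay above the untreated ones in KO esiCT and KO esiHDAC4. It stood at 1.64, 1.92 and 3.69 CPM in KO esiCT UNT and at 3.73, 4.77 and 7.14 in KO esiCT OXPT, without overlap. In KO esiHDAC4 the values were 3.08, 2.41 and 2.67 CPM untreated and 3.89, 4.54 and 7.15 with OXPT, again without overlap. Its log2 fold changes with OXPT were 1.09 (standard error 0.46, adjusted p = 0.137 by edgeR's quasi-likelihood test) in KO esiCT and 0.92 (0.46, adjusted p = 0.209) in KO esiHDAC4, neither called. Same-numbered libraries deviated together over all genes in the KO esiCT comparison (r of 0.325 to 0.612), although no label states a pairing. With the replicate block FOSB was called in KO esiCT (1.14, adjusted p = 0.0124). With #11 FOSB stood at 6.59, 5.42 and 8.68 CPM untreated, above all esiCT libraries, and at 4.47, 3.29 and 5.61 with OXPT. In WT cells it stood at 2.81, 3.70 and 9.58 CPM untreated and at 4.32, 5.29 and 11.8 with OXPT, each pair of equal number being higher with OXPT.

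FOSL1 and FOSL2 encode FRA1 and FRA2, which lack the transactivation domain of FOS and FOSB and dominate AP-1 in many carcinoma cells. FOSL1 (ENSG00000175592.9, chr11:65892049-65900573) stood at 78.7, 132 and 100.1 CPM in KO esiCT UNT and at 159, 249 and 205 with OXPT. In KO esiHDAC4 it stood at 53.5, 88.7 and 80.4 CPM untreated and at 104, 169.9 and 189 with OXPT. Both pairs of groups are separate, with log2 fold changes of 0.98 (adjusted p = 0.137) and 1.06 (adjusted p = 0.108) by edgeR's quasi-likelihood test, and neither was called. WT UNT held 101, 94.4 and 413 CPM, and its replicate 3 exceeded all 23 other libraries. Without that library FOSL1 rose with OXPT in WT cells by 1.02 (adjusted p = 0.0258), whereas with it the value was -0.04 (adjusted p = 0.969). FOSL2 (ENSG00000075426.12, chr2:28392448-28417317) stood at 32.3, 26.4 and 53.7 CPM in KO esiHDAC4 UNT and at 64.8, 57.8 and 92.7 with OXPT, without overlap (log2 fold change 0.94, adjusted p = 0.0556). DESeq2 (0.93, adjusted p = 0.0288) and the replicate block (0.96, adjusted p = 0.0151) called this difference. FOSL2 was the 1 gene of the 10 for which #11 untreated (61.7, 74.9 and 41.5 CPM) overlapped with KO esiCT UNT (39.4, 34.1 and 67.7). Under OXPT it was lower with #11 (36.8, 40.6 and 50.9 CPM) than with esiCT (69.7, 60.2 and 90.5), without overlap.

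JUNB and JUND encode the JUN proteins that often restrain growth where JUN promotes it. JUNB (ENSG00000171223.6, chr19:12791486-12793315) stood at 81.2, 74.4 and 118 CPM in KO esiCT UNT and at 128, 109.6 and 249.7 with OXPT. In KO esiHDAC4 it stood at 60.1, 46.3 and 95.1 CPM untreated and at 93.5, 102 and 195 with OXPT. In both states each library with OXPT exceeded the untreated library of its number, while the groups overlapped. The log2 fold changes were 0.83 (adjusted p = 0.241) and 0.96 (adjusted p = 0.176) by edgeR's quasi-likelihood test, and became calls with the replicate block, at 0.76 (adjusted p = 0.0336) and 0.94 (adjusted p = 0.0102). With #11, JUNB stood at 179.6, 190.2 and 201 CPM untreated, within a narrow span, and at 142, 135 and 178 with OXPT. JUND (ENSG00000130522.6, chr19:18279694-18281622) was not called with OXPT in KO esiCT, KO esiHDAC4 or WT cells, with log2 fold changes of 0.27, 0.31 and -0.14. It stood at 192, 191 and 257 CPM in KO esiCT UNT and at 369.8, 406 and 268 with #11, and at 223, 201 and 220.3 with #11 and OXPT. The difference with OXPT in KO #11 (-0.70, adjusted p = 0.218) was called when the model held these 2 groups only (-0.69, adjusted p = 0.014).

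JUN itself, the best-known partner of FOS proteins, is no member of the 10 and was followed beside them. It stood at 33.9, 46.6 and 33.4 CPM in KO esiCT UNT, and at 259, 268 and 238 with #11 untreated. With OXPT it stood at 69.3, 175 and 65.7 CPM in KO esiCT, and at 45.1, 43.1 and 111 with #11. OXPT raised JUN in KO esiHDAC4 by 1.91 on the log2 scale (adjusted p = 0.0323 by edgeR's quasi-likelihood test) and lowered it in KO #11 (-1.94, adjusted p = 0.0331). The test in KO #11 used the untreated #11 libraries in which ATF3 was seen to be high. In KO esiCT the log2 fold change was 1.44 (adjusted p = 0.102), and in WT 0.60 (adjusted p = 0.554).

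ATF3, a stress-induced factor that pairs with JUN proteins and can repress their targets (ENSG00000162772.17, chr1:212565334-212620777), had the widest range of the 10 genes. In KO esiCT it stood at 16.0, 19.5 and 19.5 CPM untreated and at 83.0, 113 and 80.7 with OXPT. In KO esiHDAC4 it stood at 21.3, 22.5 and 22.4 CPM untreated and at 124, 144 and 115 with OXPT. OXPT thus raised ATF3 5.02-fold in KO esiCT (log2 fold change 2.33, standard error 0.63, adjusted p = 0.0192 by edgeR's quasi-likelihood test) and 5.78-fold in KO esiHDAC4 (2.53, standard error 0.63, adjusted p = 0.0114), in 3 of 3 libraries each. In both states every library with OXPT exceeded every untreated one. The KO esiCT call was lost without KO esiCT OXPT replicate 2 or without any 1 of the 3 KO esiCT UNT libraries, and the KO esiHDAC4 call without KO esiHDAC4 UNT replicate 1, with adjusted p of up to 0.0886 and 0.0581 but log2 fold changes of at least 2.13 and 2.42.

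With #11 the order of ATF3 was turned round. It stood at 188, 190.2 and 137 CPM in KO #11 UNT, 9.34-fold above KO esiCT UNT, which is the value that helped to choose these genes. With OXPT it stood at 60.9, 60.9 and 111 CPM, each below all untreated #11 libraries (log2 fold change -1.15, no test). The 3 libraries of KO #11 OXPT overlapped with those of KO esiCT OXPT (log2 difference -0.25). In WT cells ATF3 stood at 20.1, 29.2 and 229.6 CPM untreated and at 103, 156 and 413 with OXPT. Every WT library with OXPT exceeded the untreated one of its number, but WT UNT replicate 3 lay above 2 of the 3 OXPT libraries, and the log2 fold change of 1.27 was not called (adjusted p = 0.198 by edgeR's quasi-likelihood test). Without that 1 library it was 3.19 (adjusted p = 0.000111). Of the neighbours in the order of ATF3 group means, KO #11 OXPT (77.6 CPM) and KO esiHDAC4 UNT (22.1) did not overlap, nor did KO esiHDAC4 UNT and KO esiCT UNT (18.4), while all others overlapped.

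EGR1 encodes a zinc finger factor that growth factor signals induce alongside FOS (ENSG00000120738.8, chr5:138465479-138469303). It stood at 90.8, 92.7 and 118 CPM in KO esiCT UNT and at 477, 454 and 366 with #11, the highest of the 8 groups and without overlap with the next. With #11 and OXPT it stood at 54.2, 49.7 and 191 CPM. OXPT lowered EGR1 4.40-fold in KO #11 (log2 fold change -2.14, standard error 0.62, adjusted p = 0.0311 by edgeR's quasi-likelihood test), in 3 of 3 libraries. This call used the same untreated #11 libraries in which ATF3 was seen to be high, and it was lost without any 1 of replicates 1 and 2 of either group (adjusted p of up to 0.156, log2 fold changes of -3.06 to -1.82 over the libraries left out in turn). In KO esiCT with OXPT the values were 77.7, 31.9 and 111 CPM (-0.45, adjusted p = 0.678). In KO esiHDAC4 they were 68.9, 58.3 and 105 CPM untreated and 44.7, 27.7 and 69.9 with OXPT (-0.71, adjusted p = 0.498). WT cells held 134, 147 and 211 CPM untreated and 65.2, 56.1 and 348 with OXPT, so replicates 1 and 2 were lower with OXPT and replicate 3 higher; leaving out number 3 in every group gave -1.19 (adjusted p = 0.0119), against -0.07 (adjusted p = 0.961) with all libraries.

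IER2 and IER3 are immediate early genes outside AP-1; IER2 encodes a small nuclear protein, and IER3 a regulator of survival under stress. IER2 (ENSG00000160888.7, chr19:13150411-13154911) stood at 114, 138 and 131 CPM in KO esiCT UNT and at 118, 184 and 457 with OXPT. It was the 1 gene of the 10 that was lower in every KO esiHDAC4 UNT library (62.5, 77.9 and 89.3 CPM) than in every KO esiCT UNT library, at a log2 fold change of -0.74 that was not called (adjusted p = 1.00 by edgeR's quasi-likelihood test). With #11 it stood at 214, 219.7 and 174 CPM untreated and at 161, 141 and 159.7 with OXPT. IER3 (ENSG00000137331.12, chr6:30743199-30744548) stood at 164, 184 and 292 CPM in KO esiCT UNT, and at 499, 498 and 318 with #11. Under OXPT it stood at 170.3, 172 and 161 CPM with esiCT and at 274, 281 and 256 with #11 in the unstranded column, without overlap (log2 difference 0.69). On both strand columns together it stood at 512, 582 and 1577 CPM with esiCT and at 910.5, 913 and 768 with #11, so the groups overlapped and the log2 difference was -0.06. The untreated difference of IER3 between #11 and esiCT was 1.04 on the unstranded column and 1.06 on both, without overlap on either. With OXPT in KO esiCT the log2 fold change of IER3 was -0.35 on the unstranded column and 0.51 on both, and in WT that of IER2 was -0.29 and 0.08, none of them called.

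The response to OXPT was read in each of the 4 states. In KO esiCT cells 7 of the 10 genes had a log2 fold change above 0 (50.8% of all genes), with a median of 0.74 against 0.01 over all genes; without KO esiCT OXPT replicate 3 the median was 0.31, with 6 above 0. Of these, 1 was called, ATF3, where 11.3% of all genes were called (a change of more than 1.5-fold with an adjusted p below 0.05), 6.23% as higher. FOSB, FOSL1 and ATF3, 3 of the 10, were higher without overlap, against 15.3% of all genes. In KO esiHDAC4 cells 8 of the 10 were above 0, with a median of 0.88 against 0.02 over all genes. Again ATF3 alone was called, with 12.0% of all genes called and 6.44% called higher, and 4 genes (FOSB, FOSL1, FOSL2 and ATF3) did not overlap, against 18.8% of all genes. With the replicate block 3 genes were called in KO esiCT (ATF3, FOSB and JUNB) and 3 in KO esiHDAC4 (ATF3, FOSL2 and JUNB), with 15.7% and 16.7% of all genes called. In KO #11 cells none of the 10 was above 0, with a median of -0.55 against -0.00 over all genes. EGR1 was the 1 gene called of the 9 tested, with 9.51% of all genes called and 3.57% called lower. In 6 genes (JUNB, JUND, EGR1, ATF3, IER2 and IER3) every OXPT library was below every untreated one, against 20.1% of all genes; on both strand columns IER3 overlapped. The KO #11 response starts from the high untreated levels described above and shares those libraries with the choice of ATF3. In WT cells 5 of the 10 were above 0, with a median of 0.09 against -0.06 over all genes, and 0 were called by edgeR or by DESeq2, with 10.7% of all genes called and 1 gene, ATF3, at an unadjusted p under 0.05. Without WT UNT replicate 3 all 10 were above 0 (median 0.76) and 2 were called, ATF3 and FOSL1, with 17.0% of all genes called, whereas without WT OXPT replicate 3 the median was -0.37, with 2 above 0. The differences between the OXPT responses of KO esiCT and WT cells, and of KO esiHDAC4 and KO esiCT cells, were called for 0 of the 10 genes by edgeR or DESeq2, with 0 at an unadjusted p under 0.05 and 0.0% of all genes called in either. The interaction between KO esiCT and WT was 1.06 for ATF3 (standard error 0.85, adjusted p = 1.00). It lay between -0.87 and 1.83 with each library left out in turn, so its direction was not stable.

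**Figure D2:**
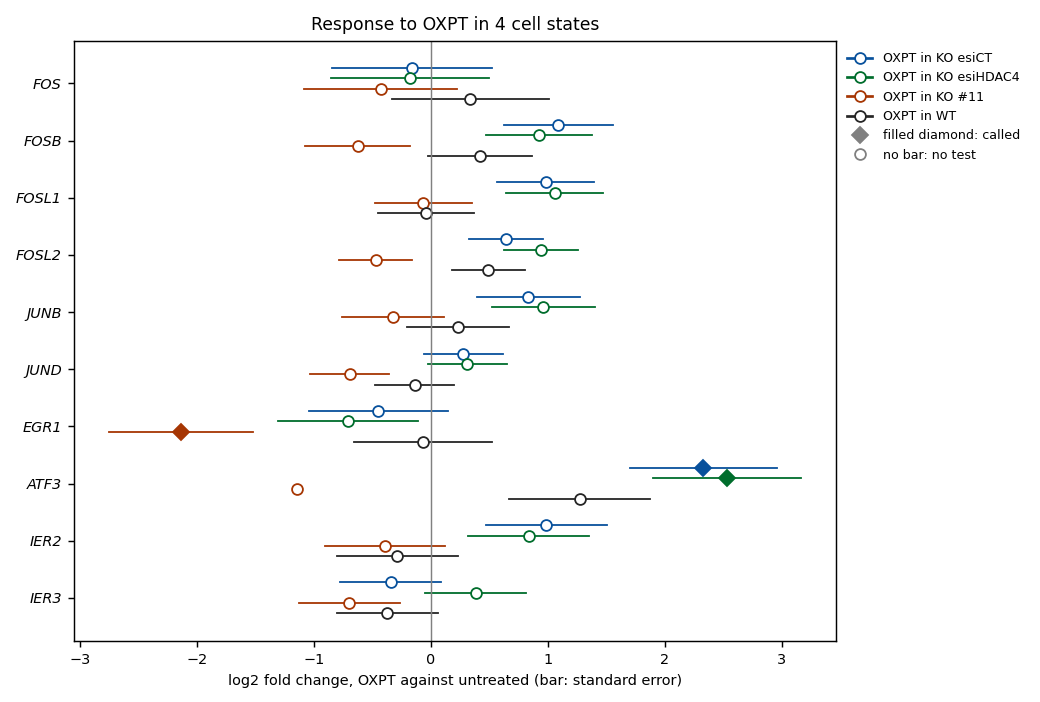
Log2 fold change with OXPT against untreated for the 10 genes in KO esiCT, KO esiHDAC4, KO #11 and WT cells; bars are standard errors, filled diamonds are calls, and the point without a bar has no test. ATF3 is at 2.33 and 2.53 in the first 2 states and at -1.15 in KO #11, where EGR1 is the call at -2.14.

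Other genes of the network were read from lists written from general knowledge, with results of these data known. Of 10 AP-1 partner genes, 9 passed the count filter, and OXPT raised 3 in KO esiCT: BATF3 (1.57, adjusted p = 0.00877 by edgeR's quasi-likelihood test), MAFF (1.53, adjusted p = 0.0181) and MAFG (0.99, adjusted p = 0.0266). The first is a JUN partner in dendritic cells, and the other two are small MAF proteins without a transactivation domain. In KO esiHDAC4 4 were raised, the same 3 and JUN, and in KO #11 JUN and JDP2, a repressor that binds JUN, were lowered (JDP2 by -1.63, adjusted p = 0.0220). In WT 0 of the 9 were called by edgeR, with 2 at an unadjusted p under 0.05 and 1 called by DESeq2, and 4 rose without WT UNT replicate 3. Of 26 other immediate early genes 25 passed the filter. In KO esiCT 6 rose and 1 fell, led by the matricellular genes CCN2 (3.16, adjusted p = 0.000184) and CCN1 (2.98, adjusted p = 0.000830) and by BTG2 (2.58, adjusted p = 4.28e-05), an antiproliferative p53 target. BTG2 rose in the other 3 states as well, by 2.38 in KO esiHDAC4, 2.38 in KO #11 and 2.54 in WT, so it rose in KO #11, where none of the 10 genes was above 0. In KO #11 5 of the 25 fell and 2 rose, the largest fall being that of EGR3 (-2.60, adjusted p = 0.0111), a relative of EGR1, and ZFP36 fell as well (-1.44, adjusted p = 0.0318); it promotes decay of AU-rich mRNAs. Counts in the other states were 8 raised and 0 lowered in KO esiHDAC4, and 6 raised and 1 lowered in WT, or 11 and 1 without WT UNT replicate 3.

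Of 17 kinases, SRF and ternary complex factors that act upstream, all 17 passed the filter. With OXPT 2 were called higher and 1 lower in KO esiCT (11.3% of all genes called), and 2 higher in KO esiHDAC4 (12.0%). In KO #11 1 was called higher (9.51%), and in WT 1 (10.7%). OXPT raised RPS6KA1, the kinase RSK1, in all 4 states, by 0.62 in KO esiCT (adjusted p = 0.00946), 0.74 in KO esiHDAC4 (adjusted p = 0.00265), 1.28 in KO #11 (adjusted p = 1.56e-05) and 0.96 in WT (adjusted p = 0.000268). SRF rose in KO esiCT (0.61, adjusted p = 0.0443) and KO esiHDAC4 (0.69, adjusted p = 0.0230), and MAPK9, the kinase JNK2, fell in KO esiCT (-0.88, adjusted p = 0.0394). Of 18 genes known as AP-1 targets, 11 passed the filter. In KO esiCT the genes that rose included the cytokine IL11 (1.71, adjusted p = 0.0319) and TIMP1, a metalloproteinase inhibitor (1.24, adjusted p = 0.0470). In KO esiHDAC4 they included the EGFR ligand HBEGF (1.60, adjusted p = 0.0334) and the cytokine LIF (1.01, adjusted p = 0.0188), and in KO #11 0 of the 11 were called by edgeR or DESeq2, with 1 at an unadjusted p under 0.05. The 7 genes of the ATF4 branch, to which ATF3 belongs, had 0 calls by edgeR with OXPT in KO esiCT, KO esiHDAC4 and WT, with 1, 1 and 2 at an unadjusted p under 0.05 and 0, 0 and 1 called by DESeq2. Their medians were -0.02, 0.74 and -1.09 in these states, whereas ATF3 was at 2.33, 2.53 and 1.27; without WT UNT replicate 3 the WT median was 0.51, with 1 gene called. In KO #11 2 of the 7 fell, ASNS (-2.89, adjusted p = 0.00624), asparagine synthetase, and TRIB3 (-2.48, adjusted p = 0.0125), a pseudokinase that ATF4 induces. Without OXPT these 2 genes stood higher with #11 than with esiCT, by 2.23 and 2.39 on the log2 scale. All adjusted p-values are from edgeR's quasi-likelihood test over all genes tested. For every list, those for OXPT in KO #11 use the same untreated #11 libraries in which ATF3 was seen to be high.

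With #11 and no OXPT, all 10 genes were above KO esiCT, by log2 differences of 3.22 for ATF3, 2.37 for FOS, 2.10 for EGR1, 1.51 for FOSB, 1.06 for JUNB, 1.04 for IER3, 0.70 for JUND, 0.67 for IER2, 0.61 for FOSL1 and 0.34 for FOSL2. Their median was 1.05, against -0.00 over all genes, and in 9 of the 10 the groups did not overlap, where 17.2% of all genes were higher in this way. As ATF3 in this comparison helped to choose the genes, nothing is read from these counts. Same-numbered libraries deviated together less between #11 and esiCT (r of -0.252 to 0.128, untreated and under OXPT) than in most tested comparisons of groups. There r was 0.113 to 0.788, so the 2 ranges overlap. Whether the #11 and esiCT libraries were handled together was not tested, so #11 and a difference in handling cannot be told apart. The following genes are named for their values. JUN stood 2.75 higher, and its partners JDP2 and MAFF by 1.60 and 1.35. Among 25 other immediate early genes 24 were above 0, with a median of 1.03, and 18 were higher without overlap; EGR3 (2.65) and EGR2 (2.37) stood highest. The 17 upstream genes had a median of -0.06, with 7 above 0. The 11 AP-1 targets had a median of 0.46, with CXCL8, the chemokine interleukin 8, at 2.89 and PLAU, urokinase, at 1.79. The 7 genes of the ATF4 branch had a median of 2.34, with DDIT3, which encodes CHOP, at 3.18. 

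Under OXPT the difference between #11 and esiCT was smaller in most of the genes. FOS (2.11) and IER3 (0.69) were higher without overlap, against 9.46% of all genes. The value of FOS was 0.50 without KO #11 OXPT replicate 3, and that of IER3 was -0.06 on both strand columns, with overlap. FOSL2 (-0.78) was lower without overlap, against 4.89%, and the other 7 overlapped, from -0.71 in IER2 to 0.42 in EGR1. The median of the 10 was -0.23, against -0.01 over all genes, and 3 of the 10 were above 0; without KO esiCT OXPT replicate 3 it was 0.15, with 7 above 0. The lists lay close to 0 as well, with medians of -0.21 for the AP-1 partners, 0.07 for the other immediate early genes, -0.01 for the upstream genes, -0.29 for the AP-1 targets and -0.04 for the ATF4 branch. The 2 comparisons of #11 use different libraries on both sides, and their difference was below 0 in all 10 genes, from -3.48 in ATF3 to -0.27 in FOS; without KO #11 OXPT replicate 3 it was -1.87 in FOS and ran from -3.82 in ATF3 to -0.31 in IER3.

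**Figure D3:**
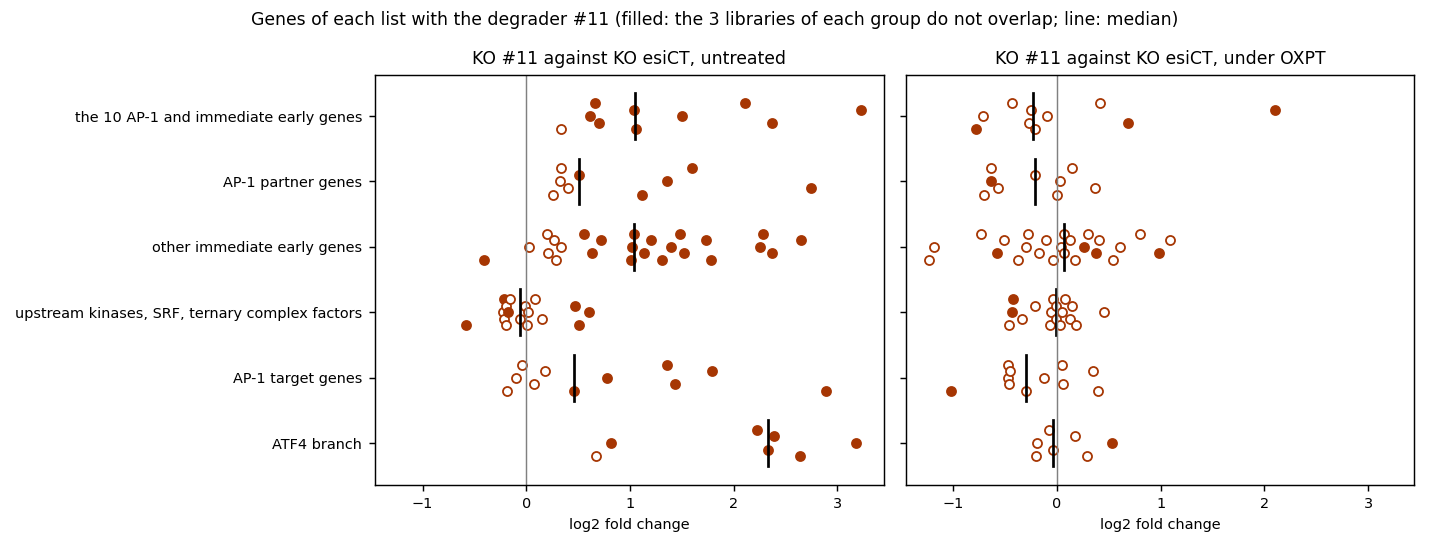
Log2 fold change of KO #11 against KO esiCT, untreated (left) and under OXPT (right), with 1 point per gene of each list; filled points are genes whose libraries do not overlap between the groups, and the line is the median of the list. The median of the 10 genes is 1.05 untreated and -0.23 under OXPT, while that of the upstream genes is near 0 in both.

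Silencing of HDAC4 with esiRNA called 0 of the 10 genes, untreated or under OXPT, by edgeR or DESeq2, with 0 genes at an unadjusted p under 0.05 and with 0.00809% and 0.0% of all genes called. OXPT itself lowered HDAC4 mRNA in KO esiCT, from 19.1 to 6.50 CPM (log2 fold change -1.56, adjusted p = 0.000287 by edgeR's quasi-likelihood test). Under OXPT, silencing therefore compared 3.88 CPM of HDAC4 in KO esiHDAC4 with 6.50 CPM in KO esiCT. Untreated, 3 of the 10 were above 0, with a median of -0.35. ATF3 was higher without overlap (log2 difference 0.27) and IER2 lower without overlap (-0.74), where 9.61% and 12.1% of all genes did not overlap. Under OXPT 4 of the 10 were above 0, with a median of -0.17, which was not taken without KO esiCT OXPT replicate 3. With each library left out in turn, JUNB lay between -0.72 and 0.14, JUND between -0.56 and 0.25, and IER2 between -1.23 and -0.14. ATF3 was again higher without overlap (124, 144 and 115 against 83.0, 113 and 80.7 CPM, a log2 difference of 0.47, adjusted p = 1.00 by edgeR's quasi-likelihood test), against 2.1% of all genes. The standard error of the ATF3 difference was 0.61 untreated and 0.60 under OXPT, wider than or close to the difference itself. All groups share 1 estimate of the spread in this fit, so libraries outside the comparison enter this standard error. The standard deviation of ATF3 was 118 CPM in WT UNT, 2.01 in KO esiCT UNT and 0.671 in KO esiHDAC4 UNT. The 5 lists had 0 calls by edgeR or DESeq2 in both comparisons of silencing, with 3 genes at an unadjusted p under 0.05 untreated and 3 under OXPT.

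All 10 genes had a log2 difference below 0 between KO and WT cells without treatment, with a median of -0.97 against -0.03 over all genes. Without WT UNT replicate 3 the median was -0.37 and 3 of the 10 were above 0. None was called by edgeR's quasi-likelihood test, where 0.291% of all genes were. In all, 5 of the 10 had an unadjusted p under 0.05 (5.74% of all genes), and DESeq2 called 1, ATF3 (-2.37, adjusted p = 0.0116). The largest differences were those of ATF3 (-2.34, adjusted p = 0.172), JUNB (-1.28, adjusted p = 0.492), FOSB (-1.13, adjusted p = 0.689) and IER2 (-1.01, adjusted p = 0.914). Without WT UNT replicate 3 these values were -0.43, -0.49, -0.44 and 0.24, so IER2 turned direction, and FOSL2 had the largest difference (-0.97). In FOSL2, EGR1 and ATF3 the groups did not overlap, against 3.52% of all genes as lower. Same-numbered libraries of these 2 groups deviated together at r of 0.113 to 0.472 over all genes, and with the replicate block JUNB was called (-1.12, adjusted p = 0.0357). Without number 3 in every group FOSL2 was called (-1.32, adjusted p = 0.00563). All genes called made up 0.607% with the block and 0.432% without number 3. Under OXPT 2 of the 10 genes, FOSL1 and IER2, were above 0, with a median of -0.66. Without WT OXPT replicate 3 the median was 0.04, with 5 above 0, and without KO esiCT OXPT replicate 3 it was -0.88, with 1 above 0. On both strand columns IER2 was at -0.28 (0.26 on the unstranded column) and IER3 at 0.10 (-0.64). In this comparison 0 genes were called by edgeR or DESeq2, with 0.138% of all genes called and 2 of the 10 (FOSL2 and ATF3) at an unadjusted p under 0.05. Untreated, the median was -0.80 over the 25 other immediate early genes and -1.81 over the 7 genes of the ATF4 branch, but -0.03 over the 17 upstream genes, and edgeR called 0 genes of these lists, with 9, 5 and 1 at an unadjusted p under 0.05 and 3, 0 and 0 called by DESeq2. Without WT UNT replicate 3 these medians were -0.18, 0.15 and -0.12, again with 0 genes called. HDAC4 mRNA averaged 22.0 CPM in WT UNT, against 19.1 in KO esiCT UNT and 10.9 in KO esiHDAC4 UNT. Under OXPT it averaged 8.98, 6.50 and 3.88 CPM in the same order. Which esiRNA the WT cells received was not tested. Since the labels do not settle it, genotype and esiRNA cannot be told apart in these differences.

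WT UNT replicate 3 was the highest of the 24 libraries for 5 of the 10 genes and lay over 2-fold above the mean of its group mates for 6, where 13.2% of all genes lay that far above and 18.1% that far below. WT OXPT replicate 3 was the highest library for 3 further genes and lay over 2-fold above its mates for 6, with 1.54% of all genes that far above and 19.5% below. KO esiCT OXPT replicate 3, the library with 22.3% unmapped reads, was over 2-fold above its mates for 4 of the 10, with 12.7% of all genes that far above and 16.1% below. The part of these libraries in the differences of other genes was not tested beyond the libraries left out in turn.

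**Figure D4:**
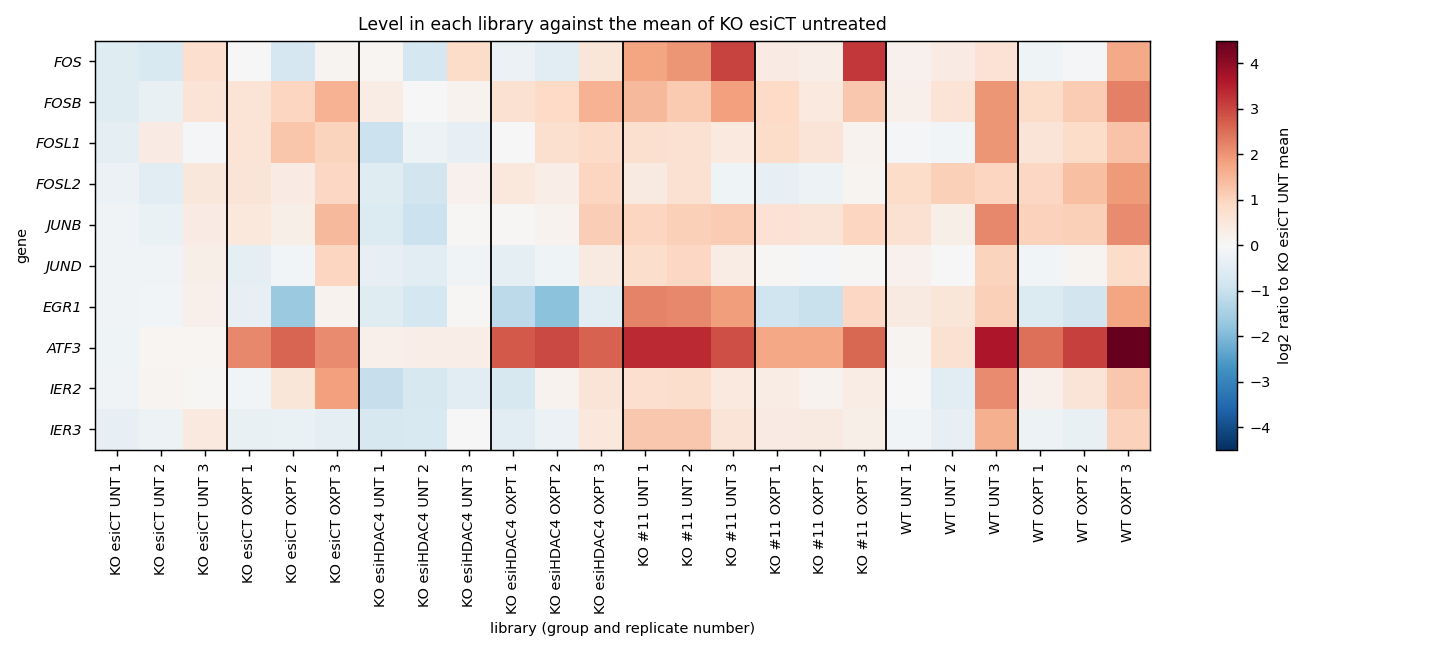
Log2 ratio of each of the 24 libraries to the mean of KO esiCT untreated, for the 10 genes; red is higher and blue lower. The ATF3 row is deep red in the OXPT libraries, the untreated #11 libraries and WT UNT 3, and pale in the other untreated libraries; WT UNT 3 and WT OXPT 3 are red in every gene.

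Over the 24 libraries, the log2 levels of the 10 genes correlated with one another at Pearson's r of 0.10 (FOS with FOSL1) to 0.87 (FOSL1 with IER2), which is a description over libraries that share groups and depth. JUNB had the highest median correlation with the other 9 genes (0.75) and EGR1 the lowest (0.46). The genes whose levels followed ATF3 most closely were TUFT1 (r = 0.94), HBEGF (0.93) and MAFF (0.93). Those closest to EGR1 were EGR3 (0.93), PTTG1IP (0.91) and FAM167A (0.90). Those closest to FOSL1 included C11orf68 (0.93) and AATF (0.92).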

How the data were processed

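RNA-seq of polyA mRNA was measured in 36 libraries. The authors deposited raw gene counts per library, whole numbers without normalization, in unstranded, forward-strand and reverse-strand columns. The submitters' processing notes name STAR 2.7.11a, Trimmomatic 0.39 and hg38; the study's methods describe a salmon and DESeq2 route, whose values were not used here. Groups came from the labels, and 12 WT libraries with contradictory OXPT entries were not compared. Symbols came from GENCODE 44 (99.89% of 62757 identifiers).

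Unstranded counts were fitted in R 4.3.3 with edgeR 4.0.16 (TMM, quasi-likelihood test, 1 coefficient per group, 24 libraries), on 12356 genes with a mean of at least 64 counts in at least 1 group. A gene was called where it changed by more than 1.5-fold with a p below 0.05 after Benjamini-Hochberg adjustment across the tested genes. Standard errors are approximate, from the log2 change and the F statistic. Log2 CPM used a prior count of 2. DESeq2 1.42.0, RLE scaling, other count columns and filters, fits of only the groups compared, the replicate block and leaving out each library were alternatives; the sum of the strand columns and leaving out number 3 were added after seeing the data. Same-numbered libraries deviated together from their group means (r of 0.113 to 0.788 in all 24 pairs of the 8 tested comparisons between 2 groups). For #11 against esiCT r was lower, at -0.252 to 0.128, though the 2 ranges overlap. The main fit held no replicate block, so its calls leave this pairing out, and the replicate block was an alternative fit. In each pair of libraries of a group counts differed by more than sampling noise (chi-square per degree of freedom 8.31 to 224). The scripts were tested on simulated data. Apart from FOS and FOSB, each gene had at least 235 counts in every library, so the spread between libraries and not counting error limits the precision.

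The members and lists were chosen with earlier results of these data known. Named genes were the 10 members, JUN, HDAC4, FBXW7, up to 3 called genes of each list per comparison with the largest change, and the 3 genes most correlated with ATF3, EGR1 and FOSL1; others are named for their values. Some genes that this rule names are not reported here. Comparisons of #11 with esiCT, and ATF3 with OXPT in KO #11, were given no test. Promoter windows are RefSeq's, on GRCh38.p14. FOSL1 and IER3 had no window.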

Additional observations from a re-analysis of the deposited data

Results flagged for a closer look

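The response of ATF3 to OXPT ran in opposite directions between states. It was -1.15 on the log2 scale in KO #11, where all 3 OXPT libraries lay below all 3 untreated ones, and 2.33 in KO esiCT and 2.53 in KO esiHDAC4, where all 3 lay above. This difference was not tested, because the untreated #11 libraries helped to choose the gene.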

How the results depend on the processing

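ATF3 with OXPT in KO esiCT and KO esiHDAC4 and EGR1 in KO #11 were called under all 10 other settings, libraries left out in turn apart. The number of genes called of the 10 moved as follows, with the share of all genes called in the same setting in brackets. For OXPT in KO esiCT it was 1 (11.3%), against 3 without the count filter (4.35%), 3 with the replicate block (15.7%) and 5 without number 3 (17.4%), and 0 to 2 with each library left out. In KO esiHDAC4 it was 1 (12.0%), against 2 with DESeq2 (15.2%), 4 without the filter (4.44%), 3 with the replicate block (16.7%), 2 with the sum of the strand columns (12.8%) and 4 without number 3 (18%), and 0 to 2 with each library left out. In KO #11 it was 1 (9.51%), against 3 with only the groups compared (22.2%) and 5 without number 3 (22.8%), and 0 to 2 with each library left out. In WT it was 0 (10.7%), against 1 without the filter (4.56%) and 2 without number 3 (20.9%), and 0 to 2 with each library left out. For KO against WT untreated it was 0 (0.291%), against 1 with DESeq2 (0.947%), 3 without the filter (0.751%), 1 with the replicate block (0.607%) and 1 without number 3 (0.432%), and 0 to 1 with each library left out; under OXPT it was 0 (0.138%), against 2 without the filter (0.212%). The cause was not tested. The other comparisons kept 0 in these settings, and the replicate block changed no other count. FOSL1 with OXPT in WT turned from -0.04 to 1.02 without WT UNT replicate 3, and lay between -0.39 and 1.02 with each library left out. The ATF3 difference of #11 untreated (3.22) lay between 3.11 and 3.42 over all settings. Over all genes the number called moved with number 3 left out, from 1398 to 2178 in KO esiCT, 1480 to 2250 in KO esiHDAC4, 1175 to 2847 in KO #11 and 1322 to 2614 in WT. With only the groups compared it was 84 in WT and 553 in KO esiCT. For KO against WT it ranged from 1 to 322 untreated (main 36) and from 0 to 91 under OXPT (main 17). JUN and the list genes were tested in the main setting, by DESeq2 and without the libraries that stood apart only. With 3 libraries a group and as few as 24 counts for FOSB, small changes of the scarce genes were not detectable at this depth.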

Other observations

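The 12 WT libraries with contradictory OXPT entries in their labels entered no comparison. In them ATF3 ranged from 31.2 to 447 CPM (median 221), EGR1 from 40.5 to 1073 (median 134), FOS from 5.51 to 51.3 (median 12.8) and IER3 from 148 to 823 (median 364). FOSL1 ranged from 74.3 to 399 CPM (median 201), JUNB from 100.4 to 485 (median 275) and JUND from 181 to 522 (median 345). FOSL2 ranged from 63.0 to 139.8 CPM (median 92.1), IER2 from 72.7 to 517 (median 197) and FOSB from 4.19 to 16.4 (median 10.5).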
